A study of Homo sapiens with 8 samples.

Results

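The 43 genes described here act in DNA repair and in the checkpoints that answer DNA damage, and they were chosen by name, as the rows of the gene tables that carry their symbols, out of 57820 genes in all. All 43 were found and all 43 passed the filter on low counts, as did 11218 genes overall. They fall into homologous recombination and end resection (14 genes), the MRN break sensor (3), the Fanconi anaemia pathway (6), mismatch repair (2), base excision and single-strand break repair (6), end joining (5), checkpoint kinases and mediators (6) and nucleotide excision (1, ERCC1). The cells were A549, an established human lung adenocarcinoma line, and no genotype, time point or drug is named in the labels beyond the manipulations themselves. In the first experiment the cells overexpressed MGA from a vector or carried an empty vector. In the second the cells were treated with siMYC, an siRNA against MYC, or with the control siRNA siNC. Each of the 4 groups had 2 libraries, named A and B. The sources used here do not give the vector's promoter, the siRNA dose or whether the overexpressing cells were a clone or a pool.

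MYC is a transcription factor that pairs with MAX on the E-box sequence and drives growth and division genes, and MGA is a very large protein that also pairs with MAX and is known as a repressor at such sites. Breaks in both DNA strands are repaired either by end joining, which seals the ends directly, or by homologous recombination, which copies the intact sister chromatid and is therefore used in S and G2 phase. Base excision and mismatch repair remove damaged or mispaired bases, the Fanconi anaemia pathway handles crosslinks between the strands, and the kinases ATM and ATR signal the damage and halt the cell cycle. Many of these genes are transcribed most in dividing cells.

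Fewer repair transcripts were counted in both experiments. The 43 genes together held 2478 and 2567 CPM (read counts normalised to library size with TMM scaling) in the MGA libraries, against 3218 and 3210 CPM in the empty vector libraries. They held 2604 and 2656 CPM in the siMYC libraries, against 4113 and 4125 CPM in the siNC libraries. In the counts tested across all genes with edgeR, 6 of the 43 fell with MGA and 27 of 43 fell with siMYC, at a Benjamini-Hochberg adjusted p under 0.05. Among all genes tested, 4% fell with MGA and 20% fell with siMYC. All 6 of the 43 that fell with MGA were among the 27. In bulk RNA a smaller number of cells of one kind, such as cells in S phase, and less RNA per cell cannot be told apart.

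Depth limits these values. The MGA libraries held 1176890 and 917548 expected counts in all, against 844477 and 820428 for the empty vector. The siMYC libraries held 2129010 and 1598790, against 1398800 and 1741730 for siNC. The median count of the 43 genes lay between 25 and 83 per library. MGA itself reached 102455 and 103732 CPM in the MGA libraries, against 121.6 and 81.5 CPM in the empty vector libraries, and MYC stood at 48.3 and 41.1 CPM in the siMYC libraries, against 219 and 183 CPM in the siNC libraries. The 7 A549 markers (KRT7, KRT8, KRT18, KRT19, AKR1B10, AKR1C1 and ALDH1A1) were above 0 in all 8 libraries, and CDKN2A, which this line lacks, was at 0 in all 8. Of markers of other cells, 3 endothelial genes were at 0 in all 8 libraries, fibroblast genes summed to at most 4.6 CPM, and 4 of 5 blood genes were at 0. The fifth blood gene, CD68, a lysosomal protein of macrophages, had 148 and 166 CPM in the MGA libraries, against 198 and 188 CPM in the empty vector libraries, and 36.3 and 38.7 CPM in the siMYC libraries, against 21.4 and 19.8 CPM in the siNC libraries. It rose with siMYC (log2 fold change 0.86, adjusted p = 0.0014), and its part in the results below was not tested.

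Promoter sequences are shown for 6 genes whose RNA fell, because MYC and MGA are known to bind the E-box CACGTG and the cell cycle factors of the E2F family bind a core of TTCCCGC. They are RefSeq windows on GRCh38.p14, from 250 bases before to 50 after the annotated start, printed 5′ to 3′ on the gene's strand. Capitals mark CACGTG or, in BLM and MSH6, TTCCCGC or its reverse complement GCGGGAA. APEX1 (chr14:20454976-20455275, plus strand), UNG (chr12:109097922-109098221, plus strand, the second of its windows), RAD50 (chr5:132556727-132557026, plus strand) and BRCA2 (chr13:32315258-32315557, plus strand) hold the E-box. BLM (chr15:90717096-90717395, plus strand) and MSH6 (chr2:47782895-47783194, plus strand, the first of its windows) hold the E2F core.
APEX1: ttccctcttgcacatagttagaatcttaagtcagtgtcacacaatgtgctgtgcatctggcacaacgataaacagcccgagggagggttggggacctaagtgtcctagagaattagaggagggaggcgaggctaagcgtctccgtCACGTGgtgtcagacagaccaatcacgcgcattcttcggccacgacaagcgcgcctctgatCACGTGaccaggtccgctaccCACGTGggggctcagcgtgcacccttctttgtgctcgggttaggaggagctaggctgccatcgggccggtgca
UNG: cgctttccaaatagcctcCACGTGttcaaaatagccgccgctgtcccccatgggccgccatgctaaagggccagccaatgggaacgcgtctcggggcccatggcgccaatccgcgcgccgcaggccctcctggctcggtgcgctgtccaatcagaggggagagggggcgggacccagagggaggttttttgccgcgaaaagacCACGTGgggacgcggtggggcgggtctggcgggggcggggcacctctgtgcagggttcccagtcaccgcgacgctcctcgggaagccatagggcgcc
RAD50: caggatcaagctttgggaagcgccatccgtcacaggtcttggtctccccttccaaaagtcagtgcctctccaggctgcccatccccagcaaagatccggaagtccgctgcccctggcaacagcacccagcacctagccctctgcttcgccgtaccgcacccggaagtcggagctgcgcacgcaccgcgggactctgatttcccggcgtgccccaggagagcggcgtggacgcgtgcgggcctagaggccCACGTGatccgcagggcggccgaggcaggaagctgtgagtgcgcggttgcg
BRCA2: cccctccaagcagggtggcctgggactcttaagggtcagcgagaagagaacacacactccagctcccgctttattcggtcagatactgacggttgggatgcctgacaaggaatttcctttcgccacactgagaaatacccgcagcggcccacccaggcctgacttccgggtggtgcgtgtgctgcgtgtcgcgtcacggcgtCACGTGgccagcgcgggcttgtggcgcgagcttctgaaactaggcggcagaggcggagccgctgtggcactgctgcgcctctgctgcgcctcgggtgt
BLM: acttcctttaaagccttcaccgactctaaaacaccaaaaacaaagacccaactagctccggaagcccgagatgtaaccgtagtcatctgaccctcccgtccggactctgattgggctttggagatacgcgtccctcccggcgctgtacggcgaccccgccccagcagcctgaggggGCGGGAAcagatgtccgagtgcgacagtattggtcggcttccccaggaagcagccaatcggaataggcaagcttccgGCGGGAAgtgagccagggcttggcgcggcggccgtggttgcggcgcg
MSH6: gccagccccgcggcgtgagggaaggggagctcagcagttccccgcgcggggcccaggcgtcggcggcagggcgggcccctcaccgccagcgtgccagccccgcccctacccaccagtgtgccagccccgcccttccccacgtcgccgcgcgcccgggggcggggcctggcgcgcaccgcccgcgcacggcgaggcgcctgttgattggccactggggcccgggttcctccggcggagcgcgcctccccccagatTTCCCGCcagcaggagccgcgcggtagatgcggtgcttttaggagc

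The APEX1 window holds 3 copies of CACGTG, beginning at -105, -44 and -23 from the start, and the UNG window holds 2, at -232 and -47. RAD50 and BRCA2 hold 1 each, at -1 and -48. Among all 43 genes, 39 matched a RefSeq promoter (NBN, FANCI, XRCC5 and PRKDC did not), with 59 windows. CACGTG was in 5 of these 59 windows (8.47%), the fifth being that of LIG3, against 7.26% of all 35116 promoter windows and 9.41% of the 13087 windows of genes tested. TTCCCGC, searched on both strands, was in 19 of the 59 windows (32.2%), against 6.55% of all windows and 9.86% of those of genes tested. These 19 windows belong to 16 genes, among them BRCA1, BARD1, BRIP1, RAD54L, FANCD2, PARP1 and RMI1. CCAAT, the CCAAT box, was in 32 of the 59 (54.2%), against 34.6% of all windows and 34.8% of those of genes tested. TTTGAA, the cell cycle element CHR, was in 6 of the 59 (10.2%), against 15.2% of all windows and 10.3% of those of genes tested. None of these motifs overlapped another in the windows of the 43 genes. A match describes letters in the window and says nothing about binding in these cells.

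With MGA, 6 of the 43 genes fell and 0 rose, which is 14% lower, beside 8.96% of all genes tested called, 4% lower and 4.96% higher. Of the 43, 37 had a negative log2 fold change, the median was -0.37 against 0.01 for all genes, and the range was -1.06 to 0.76. At an unadjusted p under 0.05 in edgeR, 15 of the 43 were lower and 0 were higher. The MGA and empty vector libraries did not overlap for 29 of the 43 genes (67.4%), beside 52.6% of all genes tested. Without empty vector library A the calls of BRCA2, FANCI, MSH6 and APEX1 were lost, and PARP1 was called lower. Without empty vector library B those of MSH6, APEX1 and PRKDC were lost. Without MGA library A every call but that of RAD50 was lost. On log2(TPM + 1), limma called 0 of the 43, with 6 at an unadjusted p under 0.05. With DESeq2 the calls of MSH6 and APEX1 were lost, and BRCA2 had no adjusted p.

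With siMYC, 27 of the 43 fell and 0 rose, which is 62.8% lower, beside 39% of all genes tested called, 20% lower and 19% higher. Of the 43, 38 had a negative log2 fold change, the median was -0.67 against 0.01 for all genes, and the range was -1.83 to 0.53. At an unadjusted p under 0.05 in edgeR, 31 of the 43 were lower and 0 were higher. The siMYC and siNC libraries did not overlap for 38 of the 43 genes (88.4%), beside 67.6% of all genes tested. Leaving out 1 library gave 21 to 27 calls, DESeq2 gave 14 and limma on log2(TPM + 1) gave 7, which were BLM, MRE11A, PRKDC, RAD51C, UNG, XRCC5 and XRCC6. The calls lost with DESeq2 were those of BRCA2, RAD51AP1, XRCC2, XRCC3, RBBP8, RMI1, RAD50, FANCD2, FANCG, FANCL, PARP1, CHEK1 and MDC1.

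**Figure D1:**
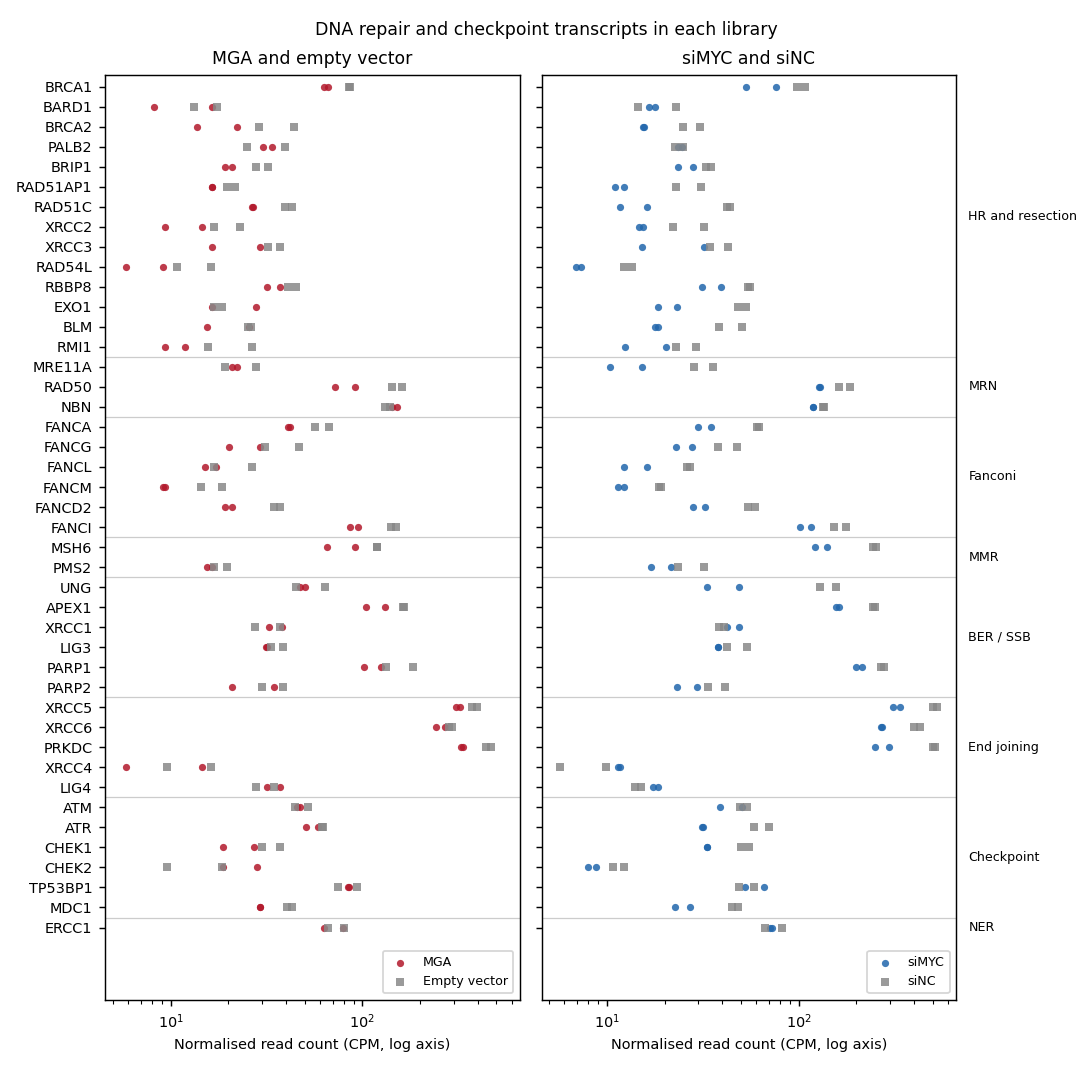
Normalised read count (CPM, log axis) of each of the 43 genes in each library, with MGA (red circles) and empty vector (grey squares) on the left and siMYC (blue circles) and siNC (grey squares) on the right; each symbol is 1 library. The siMYC and siNC libraries are apart for 38 of 43 genes (88.4%), beside 67.6% of all genes tested. The MGA and empty vector libraries are apart for 29 of 43 (67.4%), beside 52.6% of all genes tested.

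**Figure D2:**
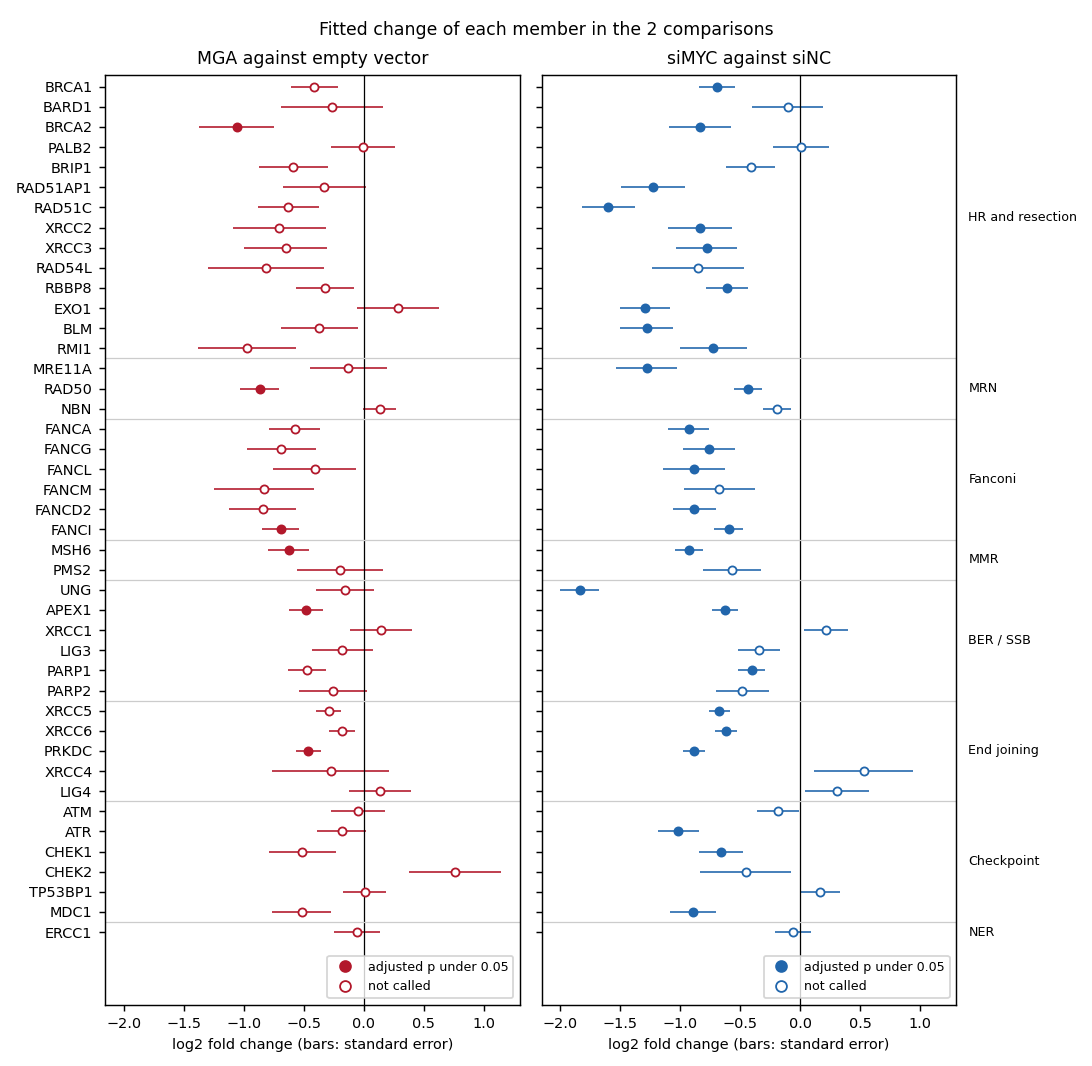
Log2 fold change of each gene from the edgeR fit, MGA against empty vector on the left and siMYC against siNC on the right, with bars of 1 standard error; filled symbols have an adjusted p under 0.05. With siMYC 27 symbols are filled and with MGA 6, all left of 0. Among all genes tested, 20% were called lower with siMYC and 4% with MGA.

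In homologous recombination and resection, 1 of 14 genes fell with MGA and 10 of 14 fell with siMYC. BRCA2, a central mediator of homologous recombination, had 13.7 and 22.2 CPM in the MGA libraries, against 44.0 and 28.8 CPM in the empty vector libraries. It had 15.6 and 15.3 CPM in the siMYC libraries, against 30.7 and 25.1 CPM in the siNC libraries. In CPM, BRCA2 was thus lower in every library of MGA and of siMYC than in any of the matching controls. For BRCA2 the fitted log2 fold change was -1.06 (SE 0.31, adjusted p = 0.029) with MGA and -0.83 (SE 0.26, adjusted p = 0.011) with siMYC. The MGA call was lost without empty vector library A and without MGA library A. It was also lost on log2(TPM + 1), where the value had the other sign (0.63, limma, adjusted p = 0.64). DESeq2 gave no adjusted p for BRCA2 with MGA and so could not call it. The siMYC call was lost without siMYC library A, without siNC library A, with DESeq2 and on log2(TPM + 1).

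BRCA1, the partner of BARD1 in the ubiquitin ligase that directs breaks to recombination, had 63.0 and 66.6 CPM in the MGA libraries, against 85.7 and 86.3 CPM in the empty vector libraries. It had 53.3 and 76.1 CPM in the siMYC libraries, against 108 and 98.6 CPM in the siNC libraries. Neither pair of groups overlapped. BRCA1 fell with siMYC (log2 fold change -0.69, SE 0.15, adjusted p = 0.00049), and with MGA its value was -0.41 (SE 0.19, adjusted p = 0.21).

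RAD51C, which acts in homologous recombination, had 26.5 and 26.9 CPM in the MGA libraries, against 42.8 and 39.6 CPM in the empty vector libraries. It had 16.1 and 11.7 CPM in the siMYC libraries, against 42.1 and 43.7 CPM in the siNC libraries, the steepest log2 fold change of the 14 genes in that comparison. Its controls stood near each other in both experiments, and the siMYC libraries were the lowest. For RAD51C the fitted log2 fold change was -1.60 with siMYC (SE 0.22, adjusted p = 1.4e-06) and -0.63 with MGA (SE 0.26, adjusted p = 0.13).

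EXO1, the exonuclease that extends resection at breaks, had 16.4 and 28.0 CPM in the MGA libraries, against 18.5 and 16.8 CPM in the empty vector libraries. It had 18.4 and 23.3 CPM in the siMYC libraries, against 52.9 and 48.4 CPM in the siNC libraries. The MGA libraries thus spanned the empty vector libraries, while the siNC libraries stood far above all of the other 6. For EXO1 the fitted log2 fold change was -1.29 with siMYC (SE 0.21, adjusted p = 1.5e-05) and 0.29 with MGA (SE 0.34, adjusted p = 0.68).

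BLM, the helicase that dissolves recombination intermediates together with RMI1, had 15.5 and 25.7 CPM in the MGA libraries, against 25.5 and 26.4 CPM in the empty vector libraries. It had 18.4 and 17.8 CPM in the siMYC libraries, against 50.7 and 38.5 CPM in the siNC libraries. Only the siRNA groups were apart. BLM fell with siMYC (log2 fold change -1.28, SE 0.22, adjusted p = 3.9e-05), and with MGA its value was -0.37 (SE 0.32, adjusted p = 0.55).

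The other 5 genes of this group that fell with siMYC had log2 fold changes from -1.23 to -0.61. They were RAD51AP1 (-1.23), the recombination factors XRCC2 (-0.83) and XRCC3 (-0.78), RMI1 (-0.72) and RBBP8, also called CtIP, which starts resection (-0.61). RMI1 had an adjusted p of 0.038 and lost its call under 9 of 18 other settings, among them the 3 other scalings. XRCC2 lost its call without siMYC library A and without siNC library A, XRCC3 without siMYC library A and without siNC library B, and RBBP8 without siMYC library B. Not called in either experiment were BARD1 (-0.26 with MGA and -0.10 with siMYC), PALB2, which bridges BRCA1 and BRCA2 (-0.01 and 0.01), the helicase BRIP1 (-0.59 and -0.41) and the motor protein RAD54L (-0.81 and -0.85). RAD54L rested on few reads, at 9.12 and 5.84 CPM in the MGA libraries, against 16.2 and 10.8 CPM in the empty vector libraries.

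The MRN complex senses breaks and recruits ATM, and 1 of its 3 subunits fell with MGA and 2 with siMYC. RAD50, the coiled-coil ATPase that holds the ends, had 92.2 and 72.4 CPM in the MGA libraries, against 142 and 162 CPM in the empty vector libraries. It had 129 and 128 CPM in the siMYC libraries, against 186 and 163 CPM in the siNC libraries. The groups were apart in both experiments. RAD50 fell with MGA (log2 fold change -0.87, SE 0.16, adjusted p = 0.00055) and with siMYC (-0.43, SE 0.12, adjusted p = 0.0047). The MGA call held without any single library, and the siMYC call was lost without siNC library A.

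MRE11A, the nuclease subunit, had 21.0 and 22.2 CPM in the MGA libraries, against 27.8 and 19.2 CPM in the empty vector libraries. It had 15.2 and 10.4 CPM in the siMYC libraries, against 35.7 and 28.6 CPM in the siNC libraries. The MGA libraries lay between the empty vector libraries, and the siMYC libraries lay below all others. For MRE11A the fitted log2 fold change was -1.28 with siMYC (SE 0.25, adjusted p = 0.00021) and -0.13 with MGA (SE 0.32, adjusted p = 0.86). NBN, the subunit that binds ATM, was called in neither experiment, at 152 and 143 CPM in the MGA libraries, against 131 and 139 CPM in the empty vector libraries, and at 118 and 118 CPM in the siMYC libraries, against 136 and 134 CPM in the siNC libraries.

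In the Fanconi anaemia pathway, 1 of 6 genes fell with MGA and 5 of 6 fell with siMYC, and all 6 had negative log2 fold changes in both. The pathway's core complex places ubiquitin on the pair FANCD2 and FANCI, which then directs the removal of a crosslink. FANCI had 86.7 and 94.6 CPM in the MGA libraries, against 151 and 142 CPM in the empty vector libraries. It had 102 and 116 CPM in the siMYC libraries, against 176 and 153 CPM in the siNC libraries. Both pairs of groups were apart, with log2 fold changes of -0.69 (SE 0.15, adjusted p = 0.0043) with MGA and -0.60 (SE 0.12, adjusted p = 0.00026) with siMYC. The MGA call of FANCI was lost without empty vector library A and without MGA library A.

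FANCD2 had 19.2 and 21.0 CPM in the MGA libraries, against 34.7 and 37.2 CPM in the empty vector libraries. It had 32.6 and 28.2 CPM in the siMYC libraries, against 59.3 and 54.2 CPM in the siNC libraries. The groups were again apart, with log2 fold changes of -0.84 (SE 0.28, adjusted p = 0.054) with MGA and -0.88 (SE 0.18, adjusted p = 0.00022) with siMYC. FANCA, a scaffold of the core complex, had 42.0 and 40.9 CPM in the MGA libraries, against 56.7 and 67.2 CPM in the empty vector libraries. It had 29.9 and 35.0 CPM in the siMYC libraries, against 60.7 and 61.8 CPM in the siNC libraries, and fell with siMYC (log2 fold change -0.93, SE 0.17, adjusted p = 9.0e-05). With MGA the value of FANCA was -0.58 (SE 0.21, adjusted p = 0.088), on groups that did not overlap. FANCG, a core subunit, and FANCL, the ubiquitin ligase, also fell with siMYC, with log2 fold changes of -0.76 and -0.88, and FANCM, the translocase that recognises stalled forks, was called in neither (-0.83 with MGA and -0.67 with siMYC). FANCG lost its siMYC call without siMYC library A and without siNC library A, and FANCL without siMYC library B.

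Of the 2 mismatch repair genes, MSH6 fell in both experiments. MSH6, which recognises mispaired bases, had 65.7 and 91.1 CPM in the MGA libraries, against 119 and 119 CPM in the empty vector libraries. It had 122 and 141 CPM in the siMYC libraries, against 243 and 252 CPM in the siNC libraries. The empty vector libraries were thus near the siMYC level and far from the siNC level. For MSH6 the fitted log2 fold change was -0.62 (SE 0.17, adjusted p = 0.019) with MGA and -0.92 (SE 0.12, adjusted p = 3.3e-07) with siMYC. The MGA call was lost without empty vector library A, without empty vector library B and without MGA library A. PMS2, a mismatch repair endonuclease, had log2 fold changes of -0.20 with MGA and -0.57 with siMYC (adjusted p = 0.80 and 0.061). Its 9 pseudogene copies hold 361 counts over the 8 libraries, beside 221 for PMS2, so the division of reads between them makes its level uncertain.

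In base excision and single-strand break repair, 1 of 6 genes fell with MGA and 3 of 6 fell with siMYC. UNG, the glycosylase that removes uracil from DNA, had 47.4 and 50.2 CPM in the MGA libraries, against 45.2 and 63.6 CPM in the empty vector libraries. It had 33.1 and 49.1 CPM in the siMYC libraries, against 129 and 156 CPM in the siNC libraries. The MGA libraries lay within the empty vector range, while the siNC libraries held more than any other library. For UNG the fitted log2 fold change was -1.83 with siMYC (SE 0.16, adjusted p = 9.1e-10), the lowest of the 43, and -0.15 with MGA (SE 0.24, adjusted p = 0.76).

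APEX1, the endonuclease that cuts the DNA backbone after a glycosylase has acted, had 105 and 132 CPM in the MGA libraries, against 164 and 163 CPM in the empty vector libraries. It had 162 and 157 CPM in the siMYC libraries, against 250.04 and 244 CPM in the siNC libraries. Both pairs of groups were apart. APEX1 fell in both experiments, with log2 values of -0.48 with MGA (SE 0.14, adjusted p = 0.030) and -0.63 with siMYC (SE 0.11, adjusted p = 3.1e-05). The MGA call was lost without empty vector library A, without empty vector library B and without MGA library A.

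PARP1, which detects nicks and marks them with poly(ADP-ribose), had 125 and 102 CPM in the MGA libraries, against 133 and 185 CPM in the empty vector libraries. It had 199 and 215 CPM in the siMYC libraries, against 267 and 278 CPM in the siNC libraries. Both pairs were apart, and the empty vector libraries differed from each other by more than the MGA libraries did. PARP1 fell with siMYC (log2 fold change -0.40, SE 0.11, adjusted p = 0.0054), a call lost without siMYC library A, and with MGA its value was -0.47 (SE 0.16, adjusted p = 0.058). The scaffold XRCC1 (0.14 with MGA and 0.21 with siMYC), the ligase LIG3 (-0.18 and -0.34) and PARP2 (-0.26 and -0.48) were called in neither.

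In end joining, 1 of 5 genes fell with MGA and 3 of 5 fell with siMYC. PRKDC, the catalytic subunit of the DNA-dependent protein kinase, had 326 and 334 CPM in the MGA libraries, against 441 and 466 CPM in the empty vector libraries. It had 295 and 251 CPM in the siMYC libraries, against 499 and 512 CPM in the siNC libraries. Both pairs were apart by several times the gap between libraries of a group in the MGA experiment. For PRKDC the fitted log2 fold change was -0.46 (SE 0.10, adjusted p = 0.0044) with MGA and -0.88 (SE 0.09, adjusted p = 1.6e-08) with siMYC. The MGA call was lost without empty vector library B and without MGA library A.

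XRCC5, the Ku80 subunit of the ring that slides onto broken ends, had 307 and 322 CPM in the MGA libraries, against 396 and 373 CPM in the empty vector libraries. It had 310.2 and 338 CPM in the siMYC libraries, against 504 and 527 CPM in the siNC libraries. XRCC6, its Ku70 partner, had 241 and 271 CPM in the MGA libraries, against 295 and 283 CPM in the empty vector libraries. The Ku subunits shared their pattern, with no overlap in either experiment and a wider gap with siMYC. XRCC6 had 271 and 270.0 CPM in the siMYC libraries, against 401 and 427 CPM in the siNC libraries. XRCC5 and XRCC6 fell with siMYC, with log2 values of -0.67 (SE 0.09, adjusted p = 6.5e-07) and -0.62 (SE 0.09, adjusted p = 4.5e-06). With MGA their log2 fold changes were -0.29 (SE 0.10, adjusted p = 0.073) and -0.18 (SE 0.11, adjusted p = 0.35). XRCC4 and LIG4, which form the ligase complex of the last step, had log2 fold changes of -0.28 and 0.14 with MGA and of 0.53 and 0.31 with siMYC, none called.

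Among checkpoint genes, 0 of 6 were called with MGA and 3 of 6 fell with siMYC. With MGA, 1 of 6 was at an unadjusted p under 0.05 in edgeR, and limma called none. DESeq2 also called none with MGA, but it gave no adjusted p for CHEK1, CHEK2 or MDC1 and so could not call them. ATR, the kinase that answers single-stranded DNA at stalled forks, had 51.1 and 58.4 CPM in the MGA libraries, against 61.4 and 62.4 CPM in the empty vector libraries. It had 31.7 and 31.3 CPM in the siMYC libraries, against 70.0 and 58.3 CPM in the siNC libraries. The siMYC libraries were the lowest of the 8 in CPM. For ATR the fitted log2 fold change was -1.01 with siMYC (SE 0.17, adjusted p = 3.0e-05) and -0.19 with MGA (SE 0.20, adjusted p = 0.64). On log2(TPM + 1) the siMYC call was lost and the value was 0.02 (limma, adjusted p = 0.98).

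CHEK1, the kinase downstream of ATR, had 27.4 and 18.7 CPM in the MGA libraries, against 30.1 and 37.2 CPM in the empty vector libraries. It had 33.1 and 33.1 CPM in the siMYC libraries, against 55.0 and 50.2 CPM in the siNC libraries. Both pairs of groups were apart. CHEK1 fell with siMYC (log2 fold change -0.66, SE 0.18, adjusted p = 0.0047), a call lost with DESeq2 and on log2(TPM + 1), and with MGA its value was -0.51 (SE 0.28, adjusted p = 0.28). MDC1, the mediator that spreads the signal along chromatin, had 29.2 and 29.2 CPM in the MGA libraries, against 40.5 and 43.2 CPM in the empty vector libraries. It had 27.1 and 22.7 CPM in the siMYC libraries, against 45.0 and 48.4 CPM in the siNC libraries, and fell with siMYC (log2 fold change -0.89, SE 0.19, adjusted p = 0.00042). Neither pair overlapped, and with MGA the value of MDC1 was -0.52 (SE 0.25, adjusted p = 0.21).

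ATM, the kinase that answers double-strand breaks, had 47.4 and 45.6 CPM in the MGA libraries, against 52.1 and 44.4 CPM in the empty vector libraries. It had 50.6 and 38.7 CPM in the siMYC libraries, against 53.6 and 49.6 CPM in the siNC libraries. Both pairs overlapped in CPM. The 95% intervals of the log2 fold change of ATM ran from -0.51 to 0.41 with MGA and from -0.54 to 0.17 with siMYC. In TPM both pairs were apart, at 7.77 and 19.6 TPM with MGA, against 35.4 and 29.6 TPM with empty vector. The siMYC libraries had 9.33 and 6.56 TPM, against 11.2 and 13.6 TPM in the siNC libraries. The length the authors' pipeline assigned to ATM ran from 2338 to 9428 bases between libraries, and no setting called ATM. CHEK2, the kinase downstream of ATM, had 28.3 and 18.7 CPM in the MGA libraries, against 18.5 and 9.59 CPM in the empty vector libraries. It had 8.73 and 7.98 CPM in the siMYC libraries, against 10.7 and 12.2 CPM in the siNC libraries. Neither pair overlapped in CPM, the MGA libraries being the higher and the siMYC libraries the lower of theirs. MGA library B, at 18.7 CPM, was barely above empty vector library A, at 18.5 CPM. In TPM these 2 groups overlapped, at 35.29 and 26.47 TPM with MGA, against 31.66 and 15.25 TPM with empty vector. CHEK2 had the largest positive value of the 43 with MGA (log2 fold change 0.76, SE 0.38, adjusted p = 0.24). With siMYC its value was negative (-0.45, SE 0.38, adjusted p = 0.36), and neither was called. TP53BP1, which shields ends from resection, had log2 fold changes of 0.01 with MGA and 0.17 with siMYC, and ERCC1, a subunit of the nuclease of nucleotide excision repair, had -0.05 and -0.06.

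The responses to MGA and to siMYC were then compared gene by gene. In both, 35 of the 43 genes (81.4%) had a negative log2 fold change, beside 27.05% of all genes tested. The log2 fold changes of the 43 correlated with Pearson's r = 0.313 and Spearman's rho = 0.362 across genes, beside 0.113 and 0.163 over all 11218, and genes of the same libraries are not independent replicates. The difference of the responses, MGA minus siMYC, was called for 7 of the 43, all 7 higher (16.3%), beside 18.5% of all genes tested called, 10.3% higher and 8.22% lower. A higher value means that the gene fell less with MGA than with siMYC, or not at all.

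UNG had the largest difference, at 1.68 on the log2 scale (SE 0.29, adjusted p = 0.00016), and EXO1 the next, at 1.58 (SE 0.40, adjusted p = 0.0061). For both, as the library values above show, the empty vector libraries were far below the siNC libraries and close to the MGA and siMYC libraries. RAD51C differed by 0.97 (SE 0.34, adjusted p = 0.048), with like levels in both controls. ATR differed by 0.83 (SE 0.27, adjusted p = 0.029), XRCC6 by 0.43 (SE 0.14, adjusted p = 0.034), PRKDC by 0.42 (SE 0.14, adjusted p = 0.032) and XRCC5 by 0.38 (SE 0.14, adjusted p = 0.048). MRE11A, at 1.15 (SE 0.41, adjusted p = 0.052), missed the threshold. Leaving out MGA library B gave 1 call, UNG, in place of 7, and the count was 2 without empty vector library A, 2 without empty vector library B, 3 without MGA library A and 4 without siNC library B. RLE size factors gave 3 calls, upper-quartile factors 2, and library sizes alone 3, of which 2 were higher and 1, RAD50, was lower.

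**Figure D3:**
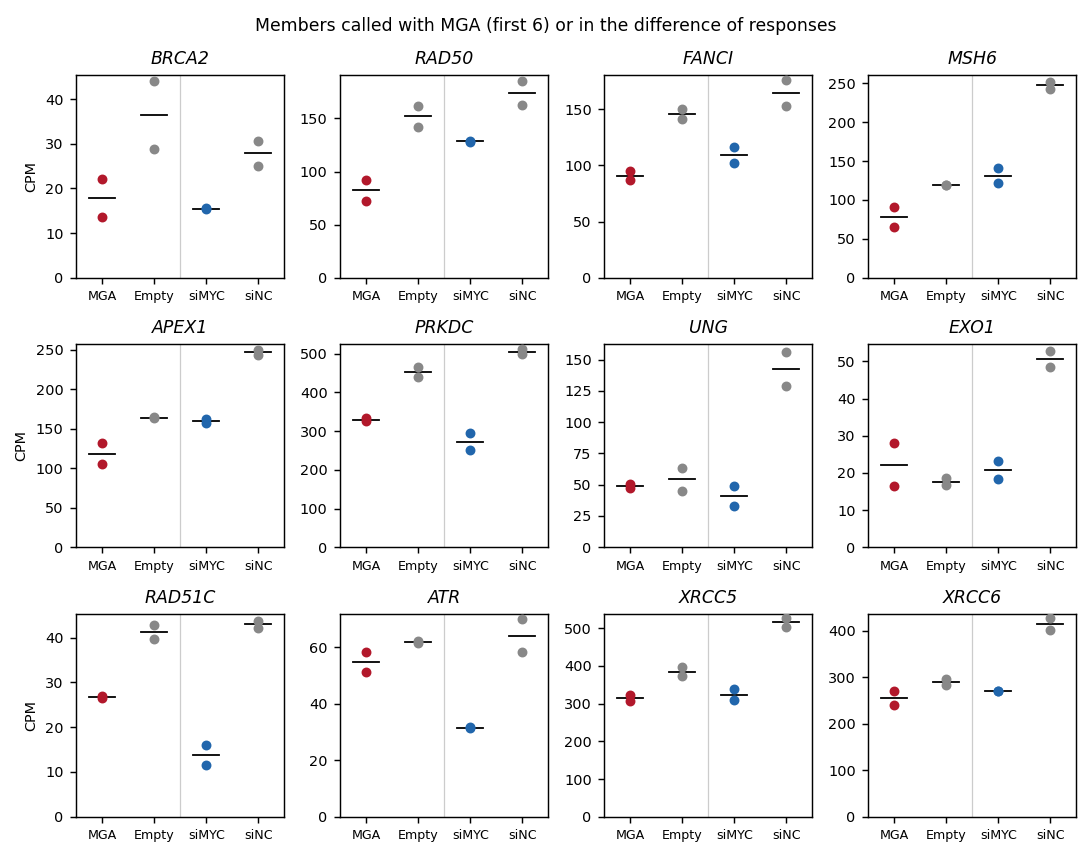
Normalised read count (CPM, axis from 0) of the 12 genes called with MGA (first 6 panels) or in the difference of the responses, in MGA, empty vector, siMYC and siNC libraries; points are libraries and the black line is the mean of 2. The siNC libraries are the highest for UNG (129 and 156 CPM) and for EXO1 (52.9 and 48.4 CPM), and the siMYC libraries the lowest for RAD51C and ATR.

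Levels per transcript length, in TPM, order the genes differently from read counts. XRCC6 was the highest with siNC at 299 ± 11.5 TPM (SD, n = 2), next to APEX1 at 288 ± 5.06 TPM, and these differed by less than their spread. XRCC5 followed at 227 ± 5.95 TPM, MSH6 at 142 ± 4.33 TPM and PRKDC at 126 ± 12.3 TPM. At the low end, BARD1 at 5.16 ± 1.41 TPM and LIG4 at 5.38 ± 0.46 TPM did not differ beyond their spread. In empty vector cells XRCC6 (216 ± 4.85 TPM), APEX1 (213 ± 3.90 TPM) and XRCC5 (193 ± 20.9 TPM) were likewise the top 3. On log2(TPM + 1) the fitted value had the other sign than in counts for 8 of the 43 genes with MGA and 6 with siMYC. Of genes called in counts these were BRCA2 with MGA and ATR with siMYC, and of genes not called they included RBBP8 (0.38) and LIG3 (0.49) with MGA and BRIP1 (0.32) and FANCM (0.15) with siMYC. The length the authors' pipeline assigned to BRCA2 ran from 1205 to 10984 bases between libraries, and BRCA2 stood at 20.5 and 7.20 TPM in the MGA libraries, against 14.6 and 3.74 TPM in the empty vector libraries. ATR, with lengths from 2504 to 8113 bases, stood at 22.2 and 9.70 TPM in the siMYC libraries, against 12.6 and 16.6 TPM in the siNC libraries. What part the assigned lengths have in this was not tested.

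Beside the 43, 98 of 104 other repair and checkpoint genes were tested in the same fit. With MGA 1 of the 98 rose (1.02%) and 4 fell (4.08%), beside 4.96% and 4% of all genes tested, with a median log2 fold change of -0.04. The riser was XPC, the damage sensor of nucleotide excision repair, with 176 and 183 CPM in the MGA libraries, against 101 and 95.9 CPM in the empty vector libraries (log2 fold change 0.87, SE 0.16, adjusted p = 0.00080). CDC25B, a phosphatase that promotes entry into mitosis, fell to 104 and 77.1 CPM in the MGA libraries, against 280.2 and 266 CPM in the empty vector libraries (-1.57, SE 0.14, adjusted p = 1.5e-08). The flap endonuclease FEN1 (log2 fold change -0.99), the deubiquitinase USP1, which acts on FANCD2 and FANCI (-0.72), and RPA1, the large subunit of the single-strand binding protein (-0.60), also fell.

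With siMYC 4 of the 98 rose (4.08%) and 33 fell (33.7%), beside 19% and 20% of all genes tested, with a median of -0.29. The thymine glycosylase TDG fell, with a log2 value of -1.25 (SE 0.16, adjusted p = 4.6e-07), and so did the fork protection partners TIMELESS, with -0.94 (SE 0.12, adjusted p = 5.7e-07), and TIPIN, with -1.501 (SE 0.23, adjusted p = 5.5e-06). FEN1 fell as well (-0.90, SE 0.13, adjusted p = 3.5e-06). ERCC5, the XPG nuclease, rose by 3.74 (SE 0.49, adjusted p = 5.7e-07) as counted. Its reads are divided with a read-through model, BIVM-ERCC5, and the 2 models together held 60 and 49.63 counts in the siMYC libraries, against 7.63 and 16.37 counts in the siNC libraries, a log2 fold change of 1.90 (adjusted p = 5.6e-06). In the difference of the responses 12 of the 98 were higher (12.2%) and 2 lower (2.04%), beside 10.3% and 8.22% of all genes tested, and the 5 with the smallest p were CDC25B (-1.73), TDG (1.18), ERCC5 (-3.22, or -2.13 with the read-through model summed), TIPIN (1.58) and XPC (0.88). With MGA the value of ERCC5 was 0.52 as counted and -0.23 summed, neither called.

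Genes of the replication machinery, made mainly in late G1 and S phase, were mostly lower in both experiments. Of 27, 13 fell with MGA (48.1%, median log2 fold change -0.68) and 25 fell with siMYC (92.6%, median -1.01), and none rose. These shares were above those of the repair genes chosen by name, of which 14% fell with MGA and 62.8% with siMYC. Among all genes tested, 4% fell with MGA and 20% with siMYC. The summed level of the 27 replication genes was 1453 and 1484 CPM in the MGA libraries, against 2336 and 2360 CPM in the empty vector libraries. It was 1518 and 1959 CPM in the siMYC libraries, against 3401 and 3604 CPM in the siNC libraries. The part of the replication genes in the fall of the repair transcripts was not tested. MYC itself was at 296 and 347 CPM in the MGA libraries, against 234 and 241 CPM in the empty vector libraries.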

How the data were processed

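RNA of 8 A549 libraries was measured by poly(A)-selected sequencing. Per the submitters' processing notes, the tools were STAR and RSEM and the build was hg19; their versions, the annotation and any use of strand are not given in these sources. Deposited by the authors, per the file headers, were an expected count, a TPM and an FPKM for each of 57820 genes in each library. The deposited expected counts are RSEM estimates, which divide a read among the genes it fits. The deposited TPM values are corrected for length and scaled to a fixed total. FPKM values, also deposited, were not used.

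Expected counts were rounded, filtered with filterByExpr (minimum count 10, minimum total 15), scaled by TMM and tested with the edgeR 4.0.16 quasi-likelihood F test (R 4.3.3), in 1 fit of 4 groups with 4 residual degrees of freedom. P-values are two-sided, with Benjamini-Hochberg adjustment over 11218 genes, and were called under 0.05. A standard error is the log2 fold change divided by the square root of F. The method was checked on data simulated with the same spread for all genes and with 200 genes changed 2-fold. Of these, 57% were recovered for MGA against empty vector and 75.5% for siMYC against siNC, each with 7 false calls. With 2 libraries a side an exact permutation test reaches no lower than p = 0.333. Nothing says that libraries A and B came from separate cultures, so the p-values reflect only the spread between libraries, which may be technical. In all 4 groups the replicates differed beyond sampling noise (chi-square per degree of freedom 1.13 to 1.86).

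The genes, lists and tests were chosen with earlier results of these data known. Library values are given for genes called with MGA or in the difference of the responses, for the 3 called with the smallest p with siMYC in each role, and for BRCA1, BRCA2, ATM, ATR, CHEK1, CHEK2, PARP1 and PRKDC; NBN and RAD54L were added after their values were seen. Genes of the other repair list are named where they have 1 of the 5 smallest p among those called. Alternatives were other scalings, no filter, leaving out the MGA gene, each experiment alone, a replicate block, DESeq2 1.42.0, limma 3.58.1 on log2(TPM + 1) and log2(TPM + 0.1), near-identical copies summed, and each library left out; summing ERCC5 with its read-through model was added after seeing the data.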

Additional observations from a re-analysis of the deposited data

Results flagged for a closer look

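In 7 of the 43 genes (16.3%) the responses differed by the edgeR test of the difference itself (MGA response minus siMYC response, log2). All 7 were higher. Among all genes tested 18.5% were called in this test, 10.3% higher and 8.22% lower. UNG differed by 1.68, with a log2 fold change of -0.15 with MGA and -1.83 with siMYC, and this call was lost among 18 other settings only on the TPM scale, where the adjusted p reached 0.058. EXO1 differed by 1.58 (0.29 with MGA and -1.29 with siMYC), a call lost on the TPM scale and without MGA library B. DESeq2 gave no adjusted p for EXO1 in the difference and so could not call it. RAD51C differed by 0.97, ATR by 0.83, XRCC6 by 0.43, PRKDC by 0.42 and XRCC5 by 0.38, and each of these 5 calls was lost in 12 to 15 of the 17 or 18 other settings. The control libraries of the 2 experiments stand apart for some of these genes: UNG had 54.4 ± 13.0 CPM with empty vector and 142.8 ± 19.1 CPM with siNC (SD, n = 2 each), and EXO1 had 17.7 ± 1.23 and 50.6 ± 3.16 CPM, while RAD51C had 41.2 ± 2.31 and 42.9 ± 1.12 CPM and ATR had 61.9 ± 0.71 and 64.2 ± 8.27 CPM. XRCC6 had 289 ± 8.64 CPM with empty vector and 414 ± 18.4 CPM with siNC. XRCC5 had 384 ± 16.3 and 515 ± 16.6 CPM, and PRKDC had 454 ± 18.0 and 505 ± 9.44 CPM. The part of the control levels in the differences was not tested.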

How the results depend on the processing

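Of 43 genes, 6 were called lower with MGA, and the count was 10 with library sizes alone, 3 with DESeq2 (adjusted p for 17 of the 43), 0 with limma on log2(TPM + 1) and 0 on log2(TPM + 0.1), where 6 were at an unadjusted p under 0.05, and 1 to 8 with 1 library left out. With siMYC 27 were called, 14 with DESeq2, 7 with limma at either TPM setting, and 21 to 27 with 1 library left out. BLM, MRE11A, PRKDC, RAD51C, UNG, XRCC5 and XRCC6 kept the siMYC call in every setting run. DESeq2 gave an adjusted p for 41 of the 43 genes with siMYC and for 26 of the 43 in the difference. In the difference 7 were called, 3 with RLE factors, 2 with upper-quartile factors, 3 with library sizes alone (2 higher and 1 lower), 2 without the MGA gene, 1 with DESeq2, 0 with limma at either TPM setting, where 3 were at an unadjusted p under 0.05, and 1 to 5 with 1 library left out. On log2(TPM + 1) and log2(TPM + 0.1) the sign turned, among called genes, for BRCA2 with MGA (0.63 and 0.71) and for ATR with siMYC (0.023 and 0.018) and in the difference (-0.20 and -0.20); the cause was not tested. Counting genes not called too, the sign on log2(TPM + 1) differed for 8 with MGA, 6 with siMYC and 10 in the difference. Library sizes alone moved the median of all genes to -0.12 with MGA, and log2(TPM + 1) moved it to 0.14 with siMYC. No setting called a gene of the 43 higher with MGA or with siMYC. With a replicate block on the letters A and B, 8, 28 and 8 genes were called in the MGA, siMYC and difference comparisons. Across genes, the difference between libraries A and B in log CPM was compared between the 2 groups of each experiment. These differences correlated at -0.021 in the MGA experiment and 0.133 in the siRNA experiment. The labels state no shared culture or day, and 2 letters are too few to establish a pairing. The median gene of the 43 had 25 to 83 counts per library, which limits the precision for the scarcer genes.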
